A study of Mus musculus with 8 samples.

Results

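The transcripts that set macrophages kept for 24 h in interleukin 4 (IL-4) apart from untreated macrophages were examined in 4 RNA sequencing libraries of the 8 in the study. The cells were mouse bone marrow-derived macrophages (BMDMs), that is, macrophages grown in culture from bone marrow cells. The IL-4 group had received IL-4 at 20 ng/ml for 24 h and the control group neither stimulus, with 2 libraries each that the labels number 1 and 3. The other 4 libraries came from cells given lipopolysaccharide (LPS, a bacterial cell wall component) at 100 ng/ml for 4 h, either alone or after IL-4 and a wash. They entered the estimate of the spread and served as a comparison that shares no library with IL-4 against control. No strain, genotype or age was given in the labels, and the sources used here do not state whether IL-4 was washed off in the group that received only IL-4. All 54532 genes of the deposited count table were considered, and 12234 of them held enough reads to be tested.

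IL-4 is a cytokine of type 2 immunity, the form of immunity directed at helminths and involved in allergy. It binds a receptor made of Il4ra and a partner chain, Janus kinases then phosphorylate the transcription factor STAT6, and STAT6 enters the nucleus and activates genes. In macrophages the outcome is called alternative activation, and it is known for secreted chitinase-like and resistin-like proteins, mannose-binding lectins, arginase and the ability of the cells to fuse.

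The 2 control libraries held 9247019 and 8480057 reads and the 2 IL-4 libraries 9006361 and 9422396. CPM values below use library sizes scaled by the trimmed mean of M-values (TMM). Calls rest on edgeR's quasi-likelihood test at an adjusted p below 0.05. Libraries with the same number deviated together from their group means (r = 0.524 between control and IL-4 over 12234 genes), so the test was also run with the replicate number as a term. Replicate 1 libraries held 2936 to 4465 reads of Xist, the RNA of the inactive X chromosome, and no read of Ddx3y, Eif2s3y, Kdm5d or Uty, which lie on the Y chromosome. Replicate 3 libraries held no read of Xist and 131 to 643 reads of each of those 4 Y-linked genes. The replicate number and the sex of the cells therefore cannot be told apart, and neither can an animal or a culture day.

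Without the replicate term 7 genes rose (0.0572% of those tested) and 1 fell (0.00817%), while 892 genes had an unadjusted p under 0.05. With the term 183 genes rose (1.50%) and 105 fell (0.858%), and 278 of these 288 were protein-coding. Cells of different sex come from different animals, so without the term the spread behind each p-value includes differences between animals. With the term, the part of these differences that all groups share is taken out of the spread. How else the paired libraries differ is not given in the labels. In bulk RNA, fewer cells of a type and less RNA per cell cannot be told apart.

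The 7 genes that rose without the term were Retnla, Rnase2a, Chil3, Mgl2, Dcstamp, Itgax and Rhoc, and the gene that fell was Cd5l. Retnla, a secreted resistin-like protein that marks alternative activation (ENSMUSG00000061100, chromosome 16, 48842551 to 48844461, mm10), held no read in either control library. It stood at 23.4 and 25.7 CPM in the IL-4 libraries, 547 reads in all. Against a floor of 3 reads over the control group, Retnla was at least 178-fold higher after IL-4 (adjusted p = 0.00535). Rnase2a, a secreted ribonuclease of the eosinophil-associated family (ENSMUSG00000047222, chromosome 14, 51255262 to 51256112), was likewise without a read in control. IL-4 libraries held 13.9 and 14.9 CPM of it, at least 104-fold more (adjusted p = 0.00656). Both transcripts thus went from no read to levels that differed little between the 2 IL-4 libraries.

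Chil3, a secreted chitinase-like lectin (ENSMUSG00000040809, chromosome 3, 106147554 to 106167564), was at 2.51 and 1.68 CPM in control and at 84.8 and 132 CPM after IL-4. Its log2 fold change was 5.67 ± 0.33 (SE; adjusted p = 0.00229). Mgl2, a lectin receptor for galactose-type sugars (ENSMUSG00000040950, chromosome 11, 70130329 to 70137550), rose from 1.82 and 1.28 CPM to 111 and 55.7 CPM, by 5.73 ± 0.55 on the log2 scale (adjusted p = 0.0128). Here the 2 IL-4 libraries differed from each other by more than the 2 control libraries, but no control library came near either. Dcstamp, a membrane protein required for macrophages and osteoclasts to fuse (chromosome 15, 39745930 to 39760938), was at 4.32 and 2.57 CPM in control and at 27.8 and 35.4 CPM after IL-4, a log2 fold change of 3.18 ± 0.28 (adjusted p = 0.00748).

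Itgax, the integrin chain CD11c (chromosome 7, 128129547 to 128150657), rose from 113 and 108 CPM to 437 and 454 CPM, by 2.01 ± 0.15 (adjusted p = 0.00535). Rhoc, a small GTPase that acts on the actin cytoskeleton (chromosome 3, 104788375 to 104794459), rose from 29.9 and 35.1 CPM to 74.9 and 90.1 CPM, by 1.34 ± 0.15 (adjusted p = 0.039). Cd5l, a secreted scavenger-receptor protein of tissue macrophages (chromosome 3, 87357881 to 87371073), fell from 61.7 and 60.2 CPM to 16.2 and 15.6 CPM, a log2 fold change of -1.94 ± 0.17 (adjusted p = 0.00748). For each of these 8 genes the control and IL-4 libraries did not overlap. Across all tested genes, both IL-4 libraries lay above both control libraries for 19.4% and below both for 19.2%.

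**Figure D1:**
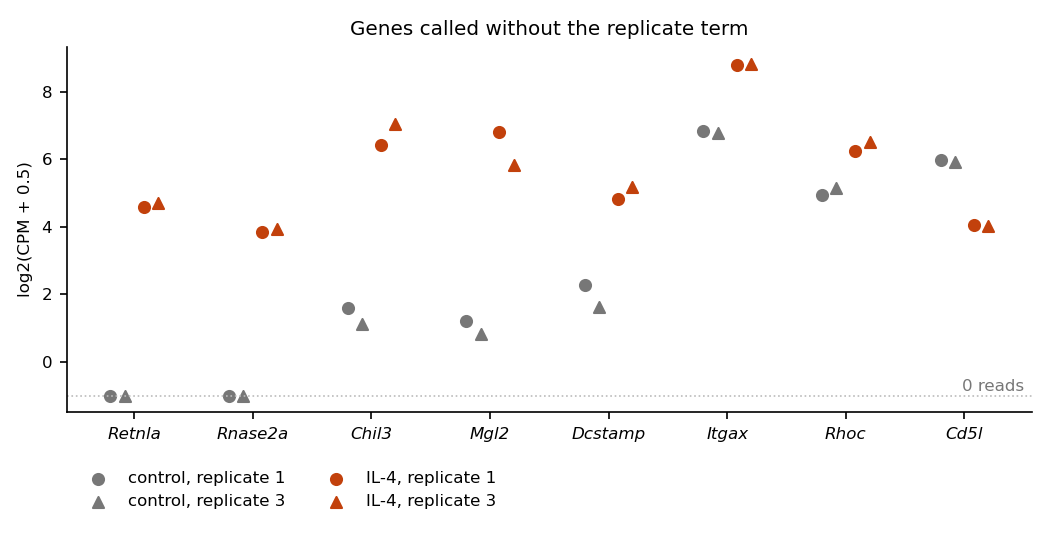
Level of the 8 genes called without the replicate term in each of the 4 libraries, as log2(CPM + 0.5). Grey symbols are control and orange symbols IL-4, circles replicate 1 and triangles replicate 3; Retnla and Rnase2a lie on the line for 0 reads in both control libraries, and Cd5l is the only one of the 8 that is lower after IL-4.

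Retnla, Rnase2a and Chil3 stayed called whichever of the 8 libraries was left out. Dcstamp was lost without control replicate 3 (adjusted p = 0.0578). Mgl2 was lost without control replicate 1 or 3 (adjusted p = 0.164 and 0.156), and so was Itgax (0.0633 and 0.0742). Cd5l was lost without any 1 of the 4 libraries compared (adjusted p = 0.0578 to 0.0866), and Rhoc without any 1 of the 8 (0.0906 to 0.483). With the replicate term, all 8 were called, also when any 1 of the 4 libraries was left out. Chil3 and Mgl2 have closely similar neighbours in Chil4 and Clec10a, and Rnase2a belongs to a family of close copies, so reads could have been split between them. Chil4 held 11 reads after IL-4 and none in control.

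The promoters of 4 of these genes are shown because STAT6 binds paired half-sites, TTC and GAA with 4 bases of any kind between them, a pattern that is its own reverse complement. The sequences are RefSeq promoter windows on GRCm38.p6, read 5′ to 3′ on the gene's strand and ending at the gene start of the deposited table, with any match in capitals. Retnla (chr16:48842359-48842550, plus strand), Itgax (chr7:128129300-128129546, plus strand) and Cd5l (chr3:87357631-87357880, plus strand) hold 1 match each, and Chil3 (chr3:106167565-106167814, minus strand) holds none. Of the 8 genes called without the term 7 had a window, and 3 of these held a match, so 3 further genes without a match are not shown.
Retnla: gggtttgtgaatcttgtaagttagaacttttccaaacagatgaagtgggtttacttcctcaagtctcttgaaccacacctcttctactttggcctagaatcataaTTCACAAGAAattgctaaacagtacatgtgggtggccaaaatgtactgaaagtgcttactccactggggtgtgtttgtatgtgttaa
Itgax: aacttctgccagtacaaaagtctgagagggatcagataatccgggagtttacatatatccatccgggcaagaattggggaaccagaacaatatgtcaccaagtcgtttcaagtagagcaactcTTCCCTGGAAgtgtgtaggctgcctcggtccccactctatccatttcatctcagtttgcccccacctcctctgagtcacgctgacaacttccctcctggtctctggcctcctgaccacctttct
Cd5l: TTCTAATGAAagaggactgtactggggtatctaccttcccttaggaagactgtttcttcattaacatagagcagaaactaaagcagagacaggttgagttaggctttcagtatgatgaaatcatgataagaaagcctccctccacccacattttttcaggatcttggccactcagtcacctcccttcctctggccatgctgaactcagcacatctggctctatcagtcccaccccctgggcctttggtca
Chil3: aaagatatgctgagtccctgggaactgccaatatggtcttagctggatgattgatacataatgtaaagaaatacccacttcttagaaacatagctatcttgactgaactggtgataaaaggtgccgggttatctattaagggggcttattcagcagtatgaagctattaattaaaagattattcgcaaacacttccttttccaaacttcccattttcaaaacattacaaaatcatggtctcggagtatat

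The match begins 87 bases before the gene start in Retnla, 124 in Itgax and 250 in Cd5l, the gene of this set that fell. Over all 32851 RefSeq windows of 300 bases (250 before and 50 after the RefSeq start), 6.95% held the motif. Counted by gene, it was present for 611 of 9131 tested genes with a window (6.69%). Among genes called with the replicate term it was present for 11 of 136 that rose (8.09%) and for 13 of 77 that fell (16.9%). A match is a description of these letters and shows no binding.

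From here on, rose and fell refer to edgeR with the replicate term, and the fold changes, SE and adjusted p come from that fit. Apart from the 8 genes above, none of these calls in IL-4 against control passed in edgeR without the term on the 12234 filtered genes. Below, edgeR without the term means that fit unless stated otherwise. Without a filter, edgeR without the term called 198 genes higher and 162 lower among 21068. DESeq2 without the term called 64 genes higher and 45 lower. The lists of genes used below were drawn up with earlier results of these data known, and the median log2 fold change over all 12234 genes was 0.00. Of the 183 genes that rose, all were higher in both replicate numbers, and for 179 the groups did not overlap. All 105 that fell were lower in both numbers, and for 99 the groups did not overlap. These genes were selected on the same libraries, so the counts of agreeing pairs and of groups without overlap are descriptions. Across all tested genes, both IL-4 libraries lay above both control libraries for 19.4% and below both for 19.2%. Calls depended on the number of libraries: without 1 of the 4 libraries, 27 to 55 genes rose and 15 to 52 fell. Whichever library was left out, 21 of the 183 and 13 of the 105 stayed called.

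Among the 6 tested chitinase-like, resistin-like and secreted RNase genes, Retnla, Rnase2a and Chil3 rose. The ribonuclease gene Ear2 was at 0.432 and 0 CPM in control and at 2.5 and 0.996 CPM after IL-4 (adjusted p = 0.0967). These genes are also associated with eosinophils and other granulocytes. Of 13 markers of mast cells, basophils and eosinophils, 6 (Mcpt4, Mcpt8, Ms4a2, Fcer1a, Epx and Il5ra) had no read in the 4 libraries. The summed level of all 13 was 8.99 and 6.62 CPM in control and 21.3 and 17.7 CPM after IL-4. Most of that sum was Siglecf, a lectin of eosinophils and alveolar macrophages, which rose from 6.92 and 5.73 CPM to 18.4 and 15.7 CPM (log2 fold change 1.44 ± 0.25, adjusted p = 0.0229).

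The components of the IL-4 signal itself did not pass. None of 18 tested genes of the IL-4 receptor and STAT6 pathway and its feedback was called by edgeR with or without the term. DESeq2 with the term called none of them either, and 1 had an unadjusted p under 0.05 in edgeR with the term. Over all 12234 tested genes, edgeR with the term called 1.50% higher and 0.858% lower, and 1964 had an unadjusted p under 0.05. At that share, 18 genes without a call do not set this list apart from other genes. Il4ra, the receptor chain that binds IL-4, was at 113 and 85.5 CPM in control and at 94.2 and 69.7 CPM after IL-4, and the groups overlapped (log2 fold change -0.28 ± 0.34, adjusted p = 0.747). Stat6 was at 224 and 274 CPM in control and at 238 and 244 CPM after IL-4 (-0.05 ± 0.11, adjusted p = 0.884). Both feedback inhibitors of cytokine receptors looked at here were low: Socs1 was at 2.07 and 1.98 CPM against 0.981 and 3.62 CPM, and Cish at 0.173 and 0.79 CPM against 0.267 and 0.996 CPM.

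Of 26 transcription factors linked to alternative activation, 3 rose and 1 fell. Egr2, a zinc finger factor downstream of STAT6, was at 21.4 and 29.4 CPM in control and at 67.3 and 81.2 CPM after IL-4 (1.56 ± 0.18, adjusted p = 0.00393). Myc, a factor of growth and biosynthesis, rose from 4.67 and 5.43 CPM to 12 and 13.8 CPM (1.35 ± 0.24, adjusted p = 0.0264). The myeloid factor Cebpa rose from 212 and 215 CPM to 328 and 351 CPM (0.67 ± 0.13, adjusted p = 0.0315). Each of these 3 was higher in both IL-4 libraries than in either control library, as were 19.4% of all tested genes. Egr2 stayed called in only 1 of the 4 fits that left out a library, and Myc and Cebpa in none. Maf, which supports the tissue-macrophage programme and Il10, moved the other way, from 113 and 124 CPM to 61.9 and 60.1 CPM (-0.95 ± 0.14, adjusted p = 0.0125). Its call was also lost in each of those fits. Irf4 and Pparg, factors often named with alternative activation, did not pass: Irf4 was at 2.42 and 2.07 CPM against 1.87 and 2.44 CPM, and Pparg at 24.6 and 28.4 CPM against 34.3 and 33.5 CPM (0.35 ± 0.24, adjusted p = 0.507).

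Arginine genes showed a low but called arginase. Arg1, the cytosolic arginase that competes with nitric oxide synthase for arginine, had 53 reads after IL-4, at 3.57 CPM in replicate 1 and 1.18 CPM in replicate 3, and 1 read in the control libraries. That is a ratio of 51.6, with a 95% interval from counting of 8.88 to 2078 (adjusted p = 0.0183). Per kilobase of gene length Arg1 reached 1.06 CPM after IL-4, against 66.5 for Chil3 and 41.0 for Retnla. Slc7a2, a transporter that brings arginine into the cell, rose from 14.8 and 22.9 CPM to 50.8 and 60.9 CPM (1.58 ± 0.18, adjusted p = 0.00369). These were the 2 called genes among 20 of arginine and polyamine metabolism, and Slc7a2 stayed called without any 1 of the 4 libraries while Arg1 was lost without each of them.

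C-type lectins, receptors for sugars on microbes and glycoproteins, went in both directions: 5 of 15 rose and 2 fell. Mrc1, the mannose receptor and a standard marker of alternative activation, was at 73.0 and 39.1 CPM in control and at 172 and 96.4 CPM after IL-4. The level in replicate 1 was above that in replicate 3 within each group, and the rise within each replicate number was 1.27 ± 0.14 (adjusted p = 0.00369, against 0.696 without the term). Clec10a, the neighbour of Mgl2, rose from 3.98 and 1.88 CPM to 11.7 and 4.53 CPM (1.43 ± 0.25, adjusted p = 0.0242), and Clec7a, the beta-glucan receptor Dectin-1, from 465 and 364 CPM to 673 and 606 CPM (0.64 ± 0.11, adjusted p = 0.0247). Clec4a2 also rose (0.62 ± 0.12). Clec4a1 fell from 29.5 and 39.9 CPM to 16.1 and 17.5 CPM (-1.03 ± 0.12, adjusted p = 0.00447) and Clec4d, an activating receptor for mycobacterial glycolipid, from 497 and 597 CPM to 285 and 347 CPM (-0.79 ± 0.11, adjusted p = 0.00735).

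MHC class II molecules present peptides to helper T cells. Of 13 tested genes of class II presentation 7 rose and 6 did not pass, 10 had a positive log2 fold change, and the median was 0.81. Ciita, the master activator of class II transcription, was at 26.8 and 33.3 CPM in control and at 61.6 and 82.9 CPM after IL-4 (1.26 ± 0.13, adjusted p = 0.0031). The peptide-loading chain H2-DMb1 rose from 33.3 and 57.3 CPM to 66.2 and 132 CPM (1.10 ± 0.11, adjusted p = 0.00231), and the invariant chain Cd74 from 1054 and 949 CPM to 1846 and 2035 CPM (0.95 ± 0.14, adjusted p = 0.0106). For H2-DMb1, replicate 3 was higher than replicate 1 in both groups, and both numbers moved by a similar ratio. The surface chains H2-Aa (0.81 ± 0.15) and H2-Ab1 (0.90 ± 0.14) were also called, with H2-DMa and the lysosomal reductase Ifi30, while H2-Eb1 missed the threshold (0.83 ± 0.19, adjusted p = 0.0567). The members with a negative log2 fold change were H2-DMb2 (-0.53, adjusted p = 0.691), March1 (-0.28, 0.47) and the protease Ctss (-0.02, 0.957). Ciita and H2-DMb1 stayed called without any 1 of the 4 libraries, and 2 to 4 of the 13 genes did in each such fit. MHC genes have close copies, so their single values are less certain. Markers of dendritic cells, which also carry Itgax and class II, summed to 1.38 and 1.58 CPM in control and to 2.41 and 1.36 CPM after IL-4 over 9 genes, and the groups overlapped.

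**Figure D2:**
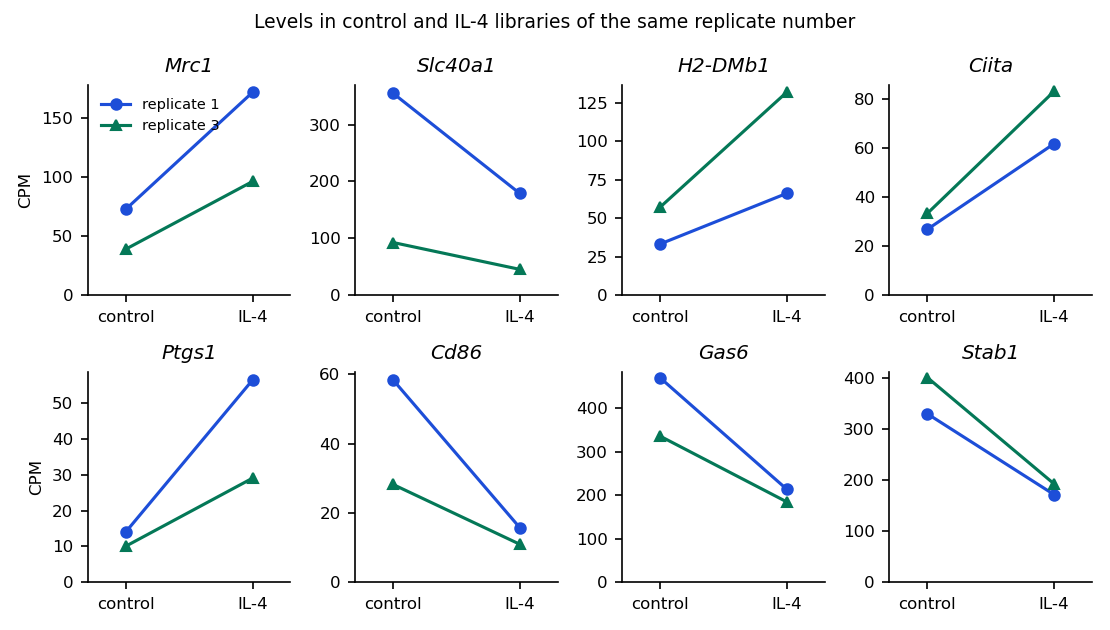
CPM of 8 genes in control and IL-4 libraries, with lines joining libraries of the same replicate number (blue circles, replicate 1; green triangles, replicate 3). In all 8 panels both lines run the same way, and for Slc40a1 the 2 replicates lie further apart than control and IL-4.

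T cell co-stimulatory ligands included 2 that fell. Cd86, which engages CD28 on T cells, was at 58.3 and 28.2 CPM in control and at 15.8 and 11 CPM after IL-4 (-1.66 ± 0.19, adjusted p = 0.00383), and Icosl, the ligand of ICOS, fell from 13.6 and 20.4 CPM to 5.53 and 8.06 CPM (-1.32 ± 0.16, adjusted p = 0.00411). No other gene of the 17 in their list was called. Pdcd1lg2, a checkpoint ligand known to respond to IL-4, was at 0 and 0.296 CPM in control and at 1.25 and 1.27 CPM after IL-4 but did not pass (adjusted p = 0.117).

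Chemokines that attract type 2 immune cells were scarce. Ccl22, a ligand of the chemokine receptor Ccr4 on T cells, rose from 0.173 and 0.494 CPM to 4.81 and 2.90 CPM (3.52 ± 0.43, adjusted p = 0.00495). Ccl17, which shares that receptor, had 3 reads after IL-4 against 2 in the control libraries, so no fold is given. Ccl24, an eotaxin, had 7 reads after IL-4 and none in the control libraries (at least 2.27-fold higher, adjusted p = 0.303). The CC chemokine Ccl9 rose from 428 and 539 CPM to 892 and 988 CPM (0.97 ± 0.16, adjusted p = 0.0186), which made 2 called genes of 23 chemokines. Among 20 chemoattractant receptors 1 rose, the chemokine receptor Ccr1 (1.04 ± 0.17, adjusted p = 0.0165), and 3 fell. Cx3cr1, the fractalkine receptor of monocytes and resident macrophages, had the largest fall of the 3, from 21.4 and 41.4 CPM to 4.81 and 5.89 CPM (-2.50 ± 0.24, adjusted p = 0.0018). Cxcr4 fell by 0.75 ± 0.12 and the complement receptor C5ar1 by 0.70 ± 0.14 on the log2 scale.

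The called cytokine and growth factor genes all fell, as did 0.858% of all tested genes. Il1b, the precursor of interleukin 1 beta, was low in both groups and fell from 2.68 and 1.19 CPM to 0.178 and 0.362 CPM, 43 reads against 6 (-2.77 ± 0.50, adjusted p = 0.0265). Ebi3, a subunit of interleukins 27 and 35, fell from 22 and 25.8 CPM to 9.81 and 13 CPM (-1.06 ± 0.21, adjusted p = 0.0384). They were the 2 called genes among 25 cytokines. Vegfa, the growth factor of blood vessels, fell from 108 and 54.7 CPM to 47.9 and 28.8 CPM (-1.05 ± 0.12, adjusted p = 0.00369), and was the 1 called gene among 17 growth factors. Flt1, a receptor for Vegfa, was at 3.11 and 3.16 CPM in control and at 24.5 and 16.0 CPM after IL-4 (2.68 ± 0.26, adjusted p = 0.0018).

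Genes of cell fusion and of osteoclasts, the multinucleate cells that resorb bone, held 4 called genes of 19, all of which rose. Beside Dcstamp they were Ocstamp, another fusion protein, which rose from 0.432 and 0.198 CPM to 8.38 and 2.35 CPM (3.96 ± 0.62, adjusted p = 0.0156), and the collagen-degrading protease Ctsk, from 79.4 and 93.4 CPM to 157 and 170 CPM (0.92 ± 0.10, adjusted p = 0.00369). The fourth, the carbonic anhydrase Car2, rose from 0.692 and 0.790 CPM to 6.33 and 1.90 CPM (2.40 ± 0.49, adjusted p = 0.041). Ocstamp and Car2 were called in only 1 of the 4 fits that left out a library. Acp5, the acid phosphatase used to stain osteoclasts, was at 7.61 and 16.5 CPM against 19.2 and 34.4 CPM (adjusted p = 0.0657).

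Of 30 genes of extracellular matrix and proteases 5 rose. Mmp12, the macrophage elastase, was among the most abundant genes named here, at 1413 and 929 CPM in control and at 3141 and 2459 CPM after IL-4 (1.28 ± 0.12, adjusted p = 0.0018). Plaur, the receptor of urokinase, rose from 40.5 and 30 CPM to 94.2 and 72.2 CPM (1.24 ± 0.10, adjusted p = 0.00106), and its ligand Plau from 31.8 and 42.1 CPM to 62.2 and 78.8 CPM (0.94 ± 0.14, adjusted p = 0.0121). Ctsl, a lysosomal protease, rose by 0.70 ± 0.13 and fibronectin, Fn1, by 1.83 ± 0.36. Mmp12 and Plaur stayed called without any 1 of the 4 libraries, whereas Plau, Ctsl and Fn1 were lost in each of those 4 fits.

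The other called integrins had smaller fold changes than Itgax. Itgb2, the partner chain of Itgax, rose from 1153 and 1232 CPM to 1828 and 1884 CPM (0.64 ± 0.11, adjusted p = 0.0203), while Itgal, another partner of Itgb2, fell from 186 and 303 CPM to 108 and 201 CPM (-0.69 ± 0.12, adjusted p = 0.02) and the laminin receptor chain Itga6 from 93.9 and 82.5 CPM to 52.4 and 50.1 CPM (-0.78 ± 0.13, adjusted p = 0.0212). Itgam, the chain of CD11b, did not pass (0.22, adjusted p = 0.448).

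Receptors for dying cells, lipoproteins and antibody followed. Of 22 scavenger and apoptotic-cell receptors and their bridging proteins, Cd36, a receptor for fatty acids and oxidised lipoprotein, rose from 755 and 709 CPM to 1479 and 1347 CPM (0.95 ± 0.11, adjusted p = 0.00369). Beside Cd5l, the scavenger receptor Stab1 fell from 330 and 401 CPM to 172 and 193 CPM (-0.99 ± 0.11, adjusted p = 0.00369) and Gas6, which bridges dying cells to Mertk and Axl, from 470 and 336 CPM to 214 and 185 CPM (-1.0 ± 0.11, adjusted p = 0.00383). Of 7 Fc receptors 2 fell: Fcgr1, the high-affinity receptor for immunoglobulin G, from 72.4 and 69.3 CPM to 30.2 and 32.2 CPM (-1.18 ± 0.14, adjusted p = 0.00407), and Fcgr4 from 56.7 and 32 CPM to 26.1 and 18.6 CPM (-0.95 ± 0.17, adjusted p = 0.0256).

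Receptors for bacterial products included 2 that fell, of 22 tested. Cd14, the co-receptor that hands LPS to Tlr4, was at 474 and 353 CPM in control and at 170 and 154 CPM after IL-4 (-1.34 ± 0.14, adjusted p = 0.00325), and stayed called without any 1 of the 4 libraries. Tlr9, the receptor for bacterial DNA, fell from 42.6 and 25.9 CPM to 13.4 and 11.4 CPM (-1.46 ± 0.24, adjusted p = 0.0189). Its call stayed in only 1 of the 4 fits that left out a library. Tlr4 itself was at 109 and 108 CPM against 82.9 and 81.0 CPM and did not pass (-0.41 ± 0.14, adjusted p = 0.189).

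The Ms4a and Tmem176 families, small membrane proteins with several membrane-spanning segments, had the lowest median of the 31 lists: 5 of 10 fell, every member had a negative log2 fold change, and that median was -1.22. Ms4a6b fell from 32.4 and 15.3 CPM to 6.42 and 5.34 CPM (-1.98 ± 0.24, adjusted p = 0.00446). Ms4a6c fell from 54.1 and 49.4 CPM to 18.4 and 21 CPM (-1.41 ± 0.16, adjusted p = 0.00369) and Tmem176b from 37.9 and 27.0 CPM to 12.3 and 10.4 CPM (-1.50 ± 0.14, adjusted p = 0.0018). In each the groups did not overlap, as was so in this direction for 19.2% of all tested genes. Ms4a14 and Ms4a7 were also called. Between 2 and 5 members were called when 1 of the 4 libraries was left out.

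Paired receptors, which carry inhibitory or activating signals, were split, with 2 of 25 rising and 3 falling. Pilra, an inhibitory receptor of myeloid cells, fell from 3.72 and 4.94 CPM to 0.802 and 1.18 CPM (-2.11 ± 0.32, adjusted p = 0.0129). The sialic acid receptors Siglec1 (-0.82 ± 0.11, adjusted p = 0.00792) and Cd33 (-0.75 ± 0.11, adjusted p = 0.0107) fell, and Siglecf and Cd300ld (0.68 ± 0.10, adjusted p = 0.0128) rose.

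Several of the genes that fell are used as macrophage markers. Of 10 such markers Cd14, Fcgr1 and Aif1, a calcium-binding protein (from 16.9 and 15.8 CPM to 5.62 and 6.70 CPM), fell. Of the 10, 2 had a positive log2 fold change, Itgam among them, and the median was -0.51. Lyz2, the lysozyme that makes up most of their sum, was at 13419 and 19553 CPM against 8651 and 12791 CPM (adjusted p = 0.0522), and Csf1r, the receptor of the growth factor that macrophages need, at 2357 and 2945 CPM against 1923 and 2330 CPM (adjusted p = 0.215). Cd68 was at 998 and 1055 CPM against 863 and 1116 CPM, and the groups overlapped. The 10 markers summed to 18485 and 25112 CPM in control and to 12618 and 17383 CPM after IL-4, and none of the 10 was without reads in these libraries. Among lymphocyte markers, Cd4 fell from 13.8 and 3.56 CPM to 3.39 and 1.36 CPM (-1.79 ± 0.32, adjusted p = 0.0256), while Cd3e, Cd3d, Cd8a, Cd79a, Ncr1 and Nkg7 held no read in the 4 libraries. The 13 lymphocyte markers summed to 562 and 384 CPM in control and to 418 and 373 CPM after IL-4, most of it Il7r, the interleukin 7 receptor chain (546 and 379 CPM against 414 and 371 CPM, adjusted p = 0.392). None of 2 neutrophil and 5 stromal markers tested was called by edgeR or DESeq2 with the term, and none had an unadjusted p under 0.05 in edgeR. Of all 12234 tested genes, 1.50% rose, 0.858% fell and 1964 had an unadjusted p under 0.05 in edgeR with the term. So few markers without a call are not set apart from other genes.

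In the eicosanoid pathway, which makes prostaglandins and related lipids, 3 of 20 genes rose and 2 fell. Ptgs1, the constitutive cyclooxygenase, rose from 14.1 and 10.1 CPM to 56.3 and 29 CPM (1.78 ± 0.17, adjusted p = 0.0018) and stayed called without any 1 of the 4 libraries. Tbxas1, which makes thromboxane (0.79 ± 0.13, adjusted p = 0.0167), and Ptgir, the prostacyclin receptor (0.90 ± 0.14, adjusted p = 0.0172), also rose. Hpgd, which inactivates prostaglandins, fell from 12.2 and 14 CPM to 3.03 and 1.63 CPM (-2.56 ± 0.46, adjusted p = 0.0247). Apart from that of Il1b, this was the largest fall of any gene in the named set. Pla2g7, which degrades platelet-activating factor, fell by 0.78 ± 0.15 on the log2 scale. In the 4 fits that left out a library, Ptgir stayed called in 2, Hpgd and Pla2g7 in 1 each and Tbxas1 in none.

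Lipid and iron genes had calls in both directions. Scd1, a fatty acid desaturase, rose from 35.4 and 28.6 CPM to 114 and 67.7 CPM (1.47 ± 0.14, adjusted p = 0.00182), and lipoprotein lipase, Lpl, from 1875 and 1970 CPM to 3303 and 3329 CPM (0.78 ± 0.16, adjusted p = 0.0366). Apoe, the apolipoprotein that carries cholesterol out of macrophages, fell from 2143 and 3278 CPM to 1263 and 1995 CPM (-0.74 ± 0.12, adjusted p = 0.0188). With Cd36 and Cd5l, this made 3 genes that rose and 2 that fell of 22 in the list of LXR targets and lipid handling. Slc40a1, the iron exporter ferroportin, was at 355 and 92.6 CPM in control and at 179 and 45.4 CPM after IL-4, so that the replicates differed more than the groups. Within each number it fell by a similar ratio (-1.01 ± 0.09, adjusted p = 0.0018, against 0.867 without the term). Tfrc, the transferrin receptor that takes iron up, rose from 28.9 and 27.1 CPM to 53.9 and 57.4 CPM (1.0 ± 0.18, adjusted p = 0.0285).

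Most lists of energy metabolism and growth held more positive than negative log2 fold changes. Of 37 genes of oxidative phosphorylation 37 had a positive log2 fold change, with a median of 0.28, and 5 rose, among them the cytochrome oxidase subunits Cox8a (0.85 ± 0.16, adjusted p = 0.0286) and Cox5b (0.76 ± 0.12, adjusted p = 0.018). Over all tested genes, 6106 of 12234 were positive. The cholesterol synthesis list was positive for 23 of 23 genes (median 0.28) and fatty acid oxidation for 20 of 22 (median 0.23), but no gene of either passed in edgeR with or without the term. In each of these 2 lists 7 genes had an unadjusted p under 0.05 with the term, as had 1964 of all 12234 tested genes, and DESeq2 with the term called 1 gene of fatty acid oxidation. For the tricarboxylic acid cycle 20 of 24 were positive (median 0.21), 9 had an unadjusted p under 0.05 in edgeR with the term, against the same 1964 of 12234 over all tested genes, and none was called by edgeR with or without the term or by DESeq2 with it.

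The cell cycle list held 36 positive genes of 40 (median 0.37). Of these Pcna, the clamp of DNA polymerase, rose from 279 and 242 CPM to 464 and 393 CPM (0.72 ± 0.10, adjusted p = 0.00924). The replication helicase subunit Mcm5 rose by 0.65 ± 0.13, from 38.1 and 21.7 CPM to 60.6 and 33.9 CPM, and its groups overlapped. Both calls were lost in each of the fits that left out 1 of the 4 libraries. Glycolysis was positive for 14 of 25 genes (median 0.10). Of these Pfkp (0.60 ± 0.10) and Hk3 (0.64 ± 0.11), which act early in the pathway, rose. Protein folding in the endoplasmic reticulum was positive for 19 of 24 genes (median 0.17), of which Calr (0.47 ± 0.10) and Pdia6 (0.44 ± 0.09) rose. Both Calr and Pdia6 were lost with RLE scaling (adjusted p = 0.0587 and 0.0591), and Pdia6 also with library-size scaling (0.0558). The type I interferon response lay lower, with a negative log2 fold change for all but 1 of 32 genes and a median of -0.35. Only Oas3, an antiviral enzyme activated by double-stranded RNA, was called, from 100 and 132 CPM to 65.1 and 86.0 CPM (-0.62 ± 0.11, adjusted p = 0.0258). Under RLE, upper-quartile and library-size scaling, with and without the term, the medians of all lists for which one is given here kept their sign.

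**Figure D3:**
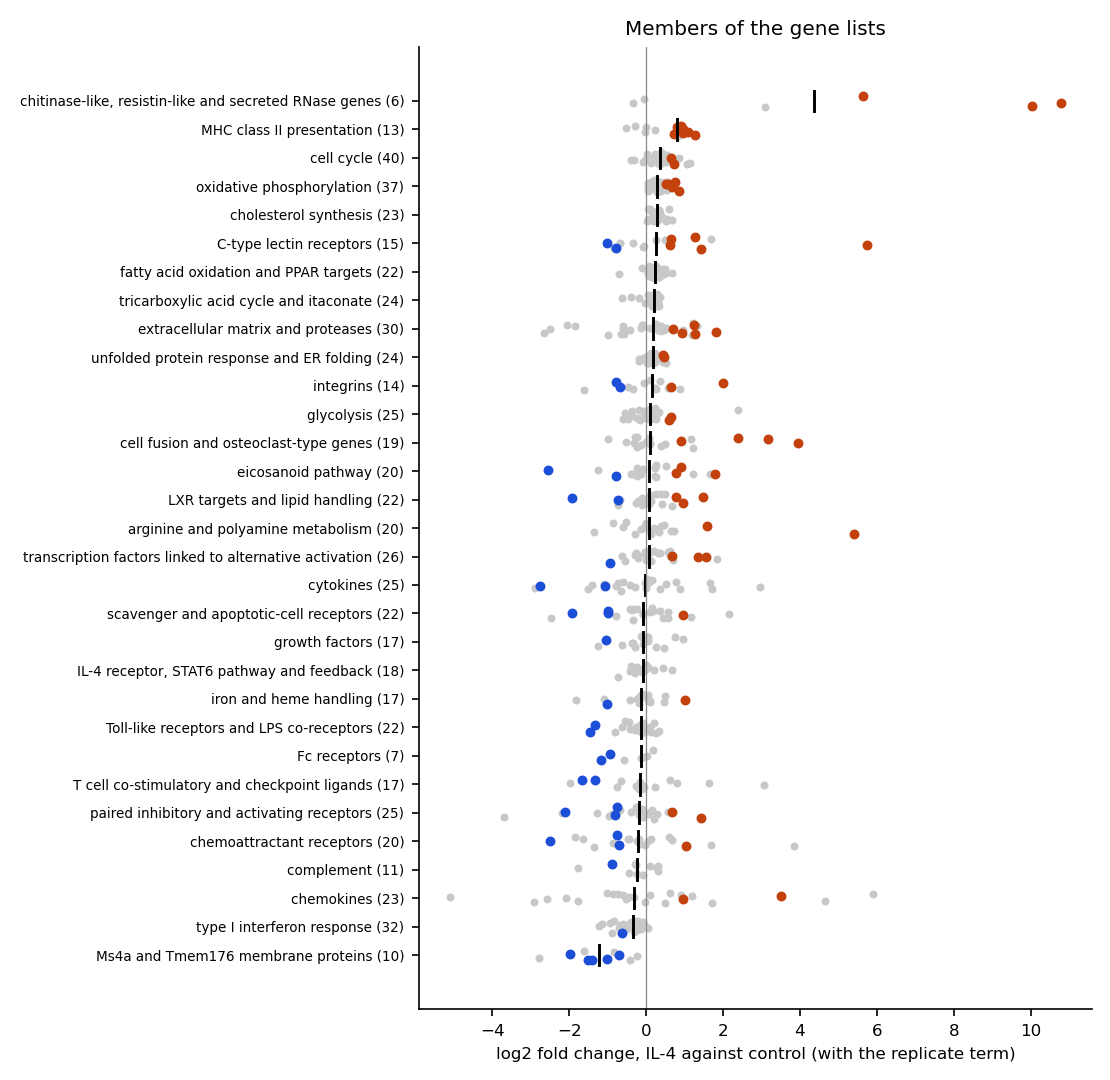
Log2 fold change of each tested member of the 31 gene lists, IL-4 against control, from the fit with the replicate term; the number of tested members is in parentheses and the black bar is their median. Orange and blue points were called higher and lower and grey points were not called. Points of genes with no read in control, such as Retnla and Rnase2a at the far right, depend on the prior count of the fit.

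Some of the largest changes lay outside the lists. Cldn11, a tight-junction claudin, had 104 reads after IL-4 and 1 in the control libraries, a 101-fold ratio with a 95% interval from counting of 17.8 to 4041 (adjusted p = 0.00598). Lrrc32, which holds latent transforming growth factor beta at the cell surface, rose from 0.519 and 0.593 CPM to 5.62 and 11.4 CPM (3.86 ± 0.35, adjusted p = 0.00176). Hr, a nuclear corepressor, rose from 0.692 and 0.198 CPM to 9.99 and 2.81 CPM (3.85 ± 0.45, adjusted p = 0.00407), and the cytochrome P450 gene Cyp1b1 from 0.864 and 0.395 CPM to 5.35 and 3.17 CPM (2.83 ± 0.54, adjusted p = 0.0324). Apart from Lrrc32, which stayed called without any 1 of the 4 libraries, these were lost in at least 2 of those fits. Among the largest falls, the adhesion receptor Adgre4 went from 5.01 and 8.50 CPM to 0.802 and 1.63 CPM (-2.47 ± 0.37, adjusted p = 0.0125). The zinc importer Slc39a4 went from 19.6 and 17.9 CPM to 7.22 and 5.98 CPM (-1.51 ± 0.22, adjusted p = 0.0107). The orphan receptor Gpr162 went from 58.1 and 68.9 CPM to 21.5 and 25.6 CPM (-1.43 ± 0.20, adjusted p = 0.00924). Adgre4 and Slc39a4 were lost in each of the fits that left out 1 of the 4 libraries, and Gpr162 stayed called in 2.

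A related question could be asked in libraries not used for this contrast, by comparing IL-4 then LPS with LPS alone. There the IL-4 effect was measured in cells that had also received LPS. Those libraries carry the same replicate numbers with the same split of sex-linked reads, so they are not shown to come from other animals. Both comparisons came from 1 fit and share its estimate of the spread and of the replicate term. With the term 132 genes were higher there (1.08% of those tested) and 149 lower (1.22%). Of the 183 genes that rose at rest, 169 had the same sign with LPS and 75 (41.0%) were called in the same direction. Of the 105 that fell, 97 had the same sign and 47 (44.8%) were called in the same direction. The median log2 fold change of the genes that rose was 0.92 at rest and 0.62 with LPS, and of those that fell -0.93 and -0.68. The genes were selected on their values at rest, so each pair of medians is a description.

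Retnla held no read with LPS alone and 188 and 268 reads with IL-4 then LPS, at least 150-fold more. Chil3 had a log2 fold change of 6.36 ± 0.25 with LPS and Mgl2 of 6.55 ± 0.20. Itgax rose by 2.0 ± 0.11 and Cd5l fell by 2.19 ± 0.15. Arg1 held no read with LPS alone and 39 and 12 reads with IL-4 then LPS, at least 16.8-fold more. These genes thus moved the same way at rest and with LPS. Ccl17, with 5 reads in the 4 libraries at rest, held 12 and 16 reads with LPS alone and 145 and 140 with IL-4 then LPS, a log2 fold change of 3.32 ± 0.42 (adjusted p = 0.00677).

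**Figure D4:**
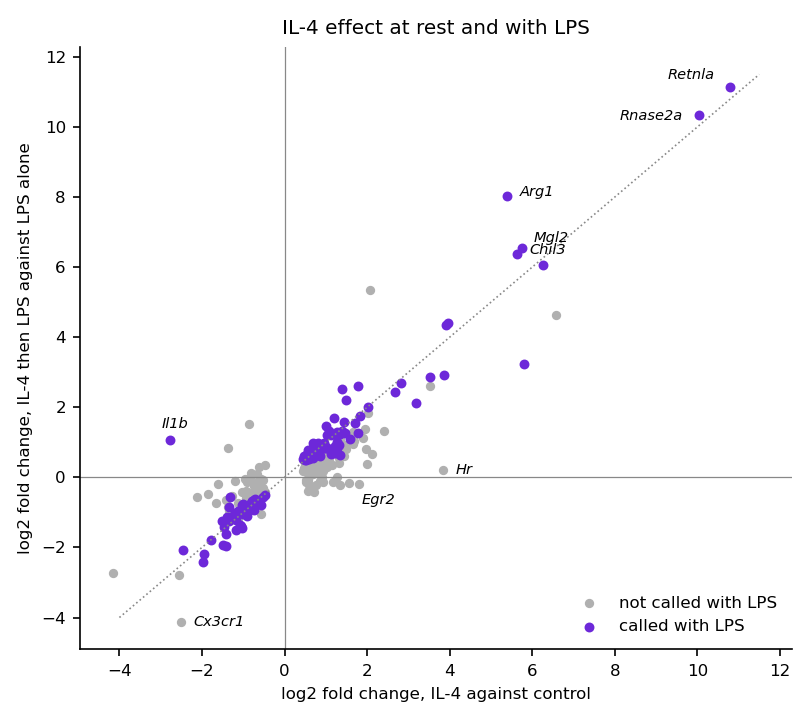
Log2 fold changes of the 288 genes called in IL-4 against control (horizontal axis) and the same genes in IL-4 then LPS against LPS alone (vertical axis), both with the replicate term; the dotted line marks equal values. Purple genes were also called with LPS, and Il1b is the only purple gene whose sign differed. Positions of genes without a read in a group depend on the prior count of the fit. Among them are Retnla and Rnase2a, with no read without IL-4, and Arg1, with no read with LPS alone.

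The difference between both IL-4 effects was tested as an interaction. Of the genes called at rest none differed in edgeR with the replicate term, where 1 gene of 12234 was called in all (0.00817%) and 789 had an unadjusted p under 0.05. DESeq2 with the term called 30 genes in all (0.245%), 13 of them among the 288. Il1b fell at rest and rose with LPS by 1.06 ± 0.17, from levels that were far higher, 1185 ± 238 CPM with LPS alone against 2577 ± 1151 CPM with IL-4 then LPS (mean ± SD, n = 2; difference 3.83 ± 0.52, adjusted p = 0.148 in edgeR and 6.21e-05 in DESeq2). Egr2 rose at rest and had a log2 fold change of -0.16 ± 0.27 with LPS, at 8.03 ± 4.84 CPM against 7.08 ± 1.16 CPM (difference -1.72 ± 0.32, adjusted p = 0.258 in edgeR and 0.0141 in DESeq2). Plau had a difference of -1.06 ± 0.20 (0.281 and 0.0471). Others of the 13 were Arhgap25, Ubash3b, Orai2, Ankrd44, Evl, Snn, Hmga2, Tubb6 and Ppa1, which were named after their values were seen.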

How the data were processed

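RNA was measured by sequencing in 8 libraries of mouse bone marrow-derived macrophages. The authors deposited raw read counts per gene, whole numbers that were not normalized. The tools named in the submitters' processing notes are HISAT2, StringTie and HTSeq, with mm10 as the genome; versions, strandedness and the handling of reads that match several genes are not given in the sources used here, so overlapping and antisense genes cannot be told apart. A further 6 count columns, for which there is no label, were not used.

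Genes were filtered by group with filterByExpr and tested with edgeR 4.0.16 (R 4.3.3), TMM factors (0.787 to 1.25), 1 mean per group over all 8 libraries, the quasi-likelihood test and Benjamini-Hochberg adjustment over 12234 genes. This left 4 residual degrees of freedom, or 3 with the replicate number as a term. The numbers were taken to pair the libraries because all 6 correlations between groups of the replicate 1 deviations, 0.343 to 0.524, exceeded 0.1. SE was derived from the log2 fold change and the F statistic, and is approximate for genes with few reads. Folds against a group without reads use a floor of 3 reads over its 2 libraries, and ratios with 1 to 3 reads carry an exact conditional binomial 95% interval. Reads have no molecular identifiers, so both cover counting error only. Library totals of 7924932 to 9431852 reads set the precision. The test was tested on simulated data with known fold changes.

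Named genes were those called without the replicate term; with it, the 12 largest rises and 12 largest falls among protein-coding genes with at least 100 reads over the 4 libraries that moved the same way in both numbers; up to 4 called genes per list and direction; and 14 further genes of IL-4 and LPS signalling and macrophage identity. Further list genes given with values were named after their values were seen. Members and lists were chosen with earlier results of these data known. Alternatives were the replicate term, the 2 groups alone, RLE, upper-quartile and library-size scaling, no filter, a stricter filter (50 reads over the 4 libraries), DESeq2 1.42.0 and leaving out libraries. The promoter motif was searched in RefSeq windows, matched by symbol.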

Additional observations from a re-analysis of the deposited data

Results flagged for a closer look

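Bcl6, a transcriptional repressor, was singled out because its IL-4 effect differed between cells with and without LPS. In edgeR with the replicate term the difference was -2.08 ± 0.19 on the log2 scale (adjusted p = 0.0259), and without the term it was -2.08 ± 0.21 (adjusted p = 0.159). Bcl6 was at 42.0 and 51.6 CPM in control and at 38.1 and 43.0 CPM after IL-4, and these groups overlapped (log2 fold change -0.20 ± 0.13, adjusted p = 0.482). With LPS alone it was at 92.3 and 83.5 CPM, and with IL-4 then LPS at 18.2 and 17.9 CPM.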

How the results depend on the processing

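Without the replicate term 7 genes were higher and 1 lower, and the counts stayed at 7 and 1 with the 2 groups alone, RLE, upper-quartile or library-size scaling and the stricter filter. Also without the term, the counts were 198 and 162 without a filter, over 21068 genes, and 64 and 45 with DESeq2. With the term they were 183 and 105 in edgeR, 555 and 511 with the 2 groups alone, and 215 and 185 with DESeq2. The cause of these differences was not tested. With the term and other scalings, chosen after seeing the data, they were 173 and 131 (RLE), 200 and 100 (upper quartile) and 174 and 115 (library size). Leaving out 1 of the 8 libraries gave 3 to 7 higher and 0 to 2 lower, and with the replicate term the counts were 35 and 35 without control replicate 1, 55 and 41 without control replicate 3, 27 and 15 without IL-4 replicate 1, and 54 and 52 without IL-4 replicate 3.

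Without the term, positive and negative differences of the IL-4 effects numbered 0 and 0 (322 genes at an unadjusted p under 0.05). Also without the term, they numbered 16 and 37 without a filter and 4 and 1 with DESeq2. With the term they numbered 0 and 1 in edgeR and 11 and 19 in DESeq2. Log2 fold changes whose sign turned were those of genes that were not called in the fit concerned. Without 1 of the 8 libraries, Slc40a1 ran from -2.32 to 0.23, Stat6 from -0.23 to 0.08, Irf4 from -0.30 to 0.10, Ccl17 from -2.93 to 3.38, Socs1 from -1.08 to 0.81 and Cish from -0.81 to 1.77. With the term they turned to 0.14 for Il4ra, 0.06 for Stat6, 0.07 for Irf4 and -0.38 for Ccl17 without control replicate 3, to -0.69 for Cish without control replicate 1, to 0.04 for Il4ra and 0.46 for Irf4 without IL-4 replicate 1, and to -2.98 for Ccl17, -1.26 for Socs1 and -1.07 for Cish without IL-4 replicate 3.

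With 2 libraries per group the spread between animals, sexes and cultures cannot be told apart, and genes with few reads, such as Ccl17, Ccl24 and Cish, were not resolved at this depth.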
